A study of Mus musculus with 12 samples.

Results

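Nuclear receptors are transcription factors, many of which are switched by small lipid-soluble ligands such as thyroid hormone, retinoic acid, steroids and fatty acids. The 41 genes described here are the mouse nuclear receptor genes outside the molecular clock, taken by name from the GENCODE M21 annotation, out of 21864 protein-coding genes. The REV-ERB genes Nr1d1 and Nr1d2, whose proteins repress the Bmal1 gene, were not among them, nor were the glucocorticoid and androgen receptor genes. The genes were examined by BMAL1-ChIP-seq, which maps the DNA bound by BMAL1, in primary mouse adult fibroblasts (MAFs). A peak, a stretch of DNA enriched in the precipitate, belonged to the gene whose protein-coding start site lay nearest to the centre of the peak.

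The comparison was between 3 control and 3 senescent BMAL1-ChIP-seq libraries. Both groups were wild-type fibroblasts from ears of adult female C57BL/6J mice, grown at 3% O2, treated for 2 h with 100 nM dexamethasone to synchronize their clocks, and collected 12 h later. Senescence, a stable growth arrest, had been induced with 20 Gy of X-rays and 21 days of further culture, and control cells were sham-irradiated. The series also held 6 input libraries, which were not analysed here. The labels number the replicates but do not say that they came from separate cultures, so p-values measure only the spread between these libraries, which may be technical. A peak list holds no expression, so the cells could not be checked here against fibroblast markers, and dexamethasone, an agonist of the glucocorticoid receptor, was given to both groups.

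The lists held 2794, 3349 and 10601 peaks in control replicates 1 to 3 and 4220, 9805 and 5053 peaks in senescent replicates 1 to 3. Control replicate 3 and senescent replicate 2 thus stood apart from the other 4 libraries in length. The lists contain no reads, so the depth is unknown, and a gene without a peak may still have been bound. Within each list, peaks were ranked by the deposited score, with rank 1 for the best peak and a shared mean rank for ties. List length was not the same in both groups, and the main counts at the receptors were therefore repeated with the 2794 best-scoring peaks of every list, called equal lists here.

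BMAL1 pairs with CLOCK and binds the E-box CACGTG, and nuclear receptor genes are among the outputs that tie the clock to lipid, thyroid hormone and retinoid signalling in metabolic tissues. Many nuclear receptors themselves bind copies of the half-site AGGTCA, alone, in pairs or with the retinoid X receptors as common partners. AP-1, a pair of Jun and Fos family proteins, binds TGACTCA or TGAGTCA and is active in senescent fibroblasts.

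BMAL1 peaks were called at 24 of the 41 receptor genes in at least 1 library (58.5%, against 36.3% of all protein-coding genes). The receptors with peaks in every library were Thra and Thrb, which encode the thyroid hormone receptors, Ppara, which encodes the fatty acid receptor of liver and muscle, and the orphan receptors Nr2f2 and Nr6a1. The remaining 17 receptors had 0 peaks in all 6 libraries, where 63.7% of all genes had none. The 5 receptors called in all 6 libraries were 12.2% of the 41, beside 5.14% of all genes. The number rested on the distance allowed and on the score: it was 2 of 41 (Nr6a1 and Thra) with peaks within 50 kb of the start site, beside 4.203% of all genes, and 3 (Nr6a1, Ppara and Thra) with peaks that scored above their list's median, beside 2.75%. The distance of 50 kb thus brought the receptors near the share of all genes.

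**Figure D1:**
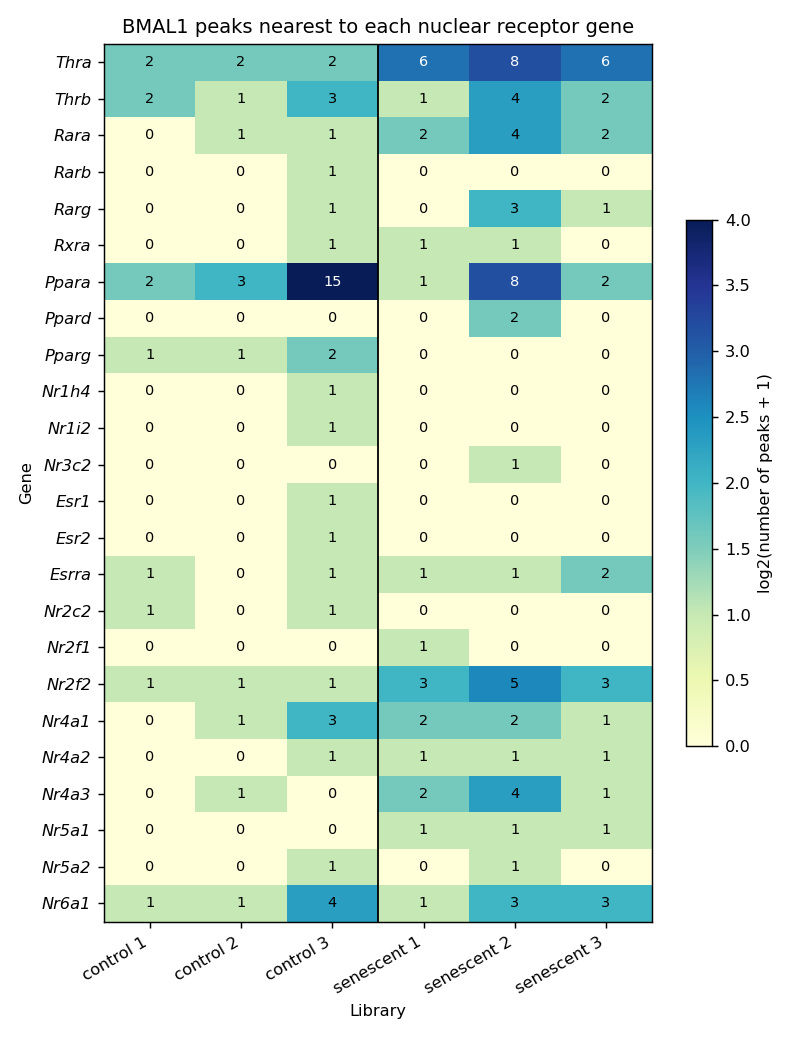
Number of BMAL1 peaks nearest to each of the 24 receptor genes with a peak (rows) in each library (columns, 3 control left of the line and 3 senescent right of it), printed in each cell and coloured on a log2(number + 1) scale. Thra had 2 peaks in each control library and 6 to 8 in the senescent libraries, and the highest number was 15, for Ppara in control replicate 3.

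Per library, 8, 9 and 19 of the 41 receptors had a peak in control replicates 1 to 3, and 13, 16 and 12 had one in senescent replicates 1 to 3. The shares ranged from 19.5% (95% Wilson interval 10.2 to 34.0%, counting error only) in control replicate 1 to 46.3% (32.1 to 61.3%) in control replicate 3. The control mean was 29.3% ± 14.8 and the senescent mean 33.3% ± 5.08 (SD, n = 3 each), with overlapping groups. Over all genes the means were 15.2% ± 8.84 and 19.2% ± 6.44. The difference of 4.07 percentage points at the receptors was close to that over all genes and smaller than the SD of either group. It rested on single libraries, at -0.813 points without control replicate 1, 0.407 without control replicate 2, 1.22 without senescent replicate 2 and 12.6 without control replicate 3, and was 8.94 points with peaks within 50 kb of the start site.

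**Figure D2:**
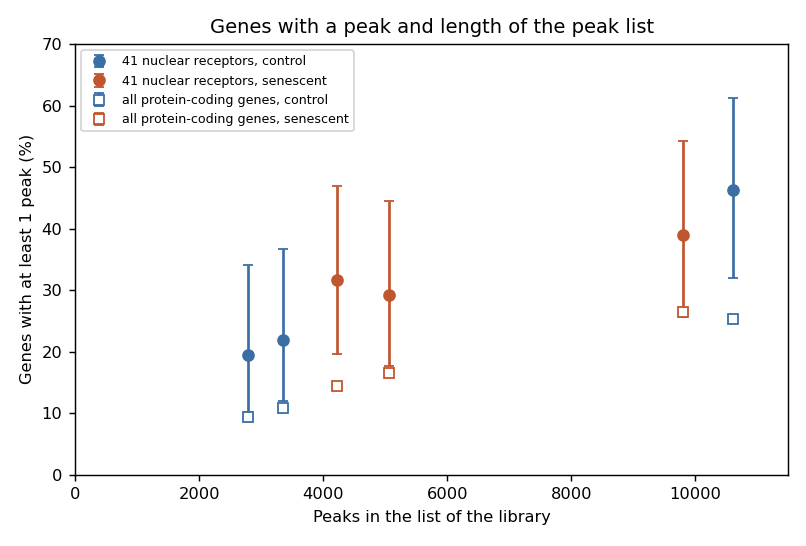
Percent of genes with at least 1 peak (vertical axis) against the number of peaks in the list of each library (horizontal axis), for the 41 receptors (filled circles) and all 21864 protein-coding genes (open squares), control in blue and senescent in orange, with 95% Wilson intervals. The share was highest in the 2 longest lists for both gene sets, and the receptors lay above all genes in each of the 6 libraries.

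The number of receptor peaks was 11, 12 and 42 in control and 23, 49 and 25 in senescent replicates 1 to 3. Per 1000 peaks of the list this was 3.94, 3.58 and 3.96 in control and 5.45, 5.0 and 4.95 in senescent libraries, so the ranges did not overlap. In equal lists they did, with 3.94, 3.58 and 5.01 per 1000 peaks in control and 4.65, 4.65 and 5.37 in senescent libraries.

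The number of peaks was higher in every senescent library than in every control library at 4 of the 24 receptors with a peak, Thra, Nr2f2, Rara and Nr5a1, beside 5.12% of the genes with a peak. It was higher in every control library at 1 receptor, Pparg, beside 1.84%. Each of these 5 genes had an exact two-sided permutation p of 0.1, the smallest that 3 against 3 libraries allow, and an adjusted p of 1.0 over 7947 genes, so no receptor passed a test. In equal lists 0 receptors were higher in the senescent libraries, beside 6.53% of the genes with a peak, and 1 (Ppara) was higher in the control libraries, beside 4.85%. With peaks above the median score, 1 receptor (Nr5a1) was higher in senescent libraries, beside 4.96%, and 0 were higher in control libraries, beside 1.07%. Without control replicate 3, 5 receptors (Thra, Nr2f2, Rara, Nr5a1 and Nr4a2) were higher in senescent libraries, beside 14.5% of the genes with a peak. There, 1 (Pparg) was higher in control libraries, beside 2.29%.

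The thyroid hormone receptor alpha gene Thra (chr11:98740638-98769006 in mm10, + strand) had the best-ranked peaks among the receptors. It had 2, 2 and 2 peaks in control and 6, 8 and 6 peaks in senescent replicates 1 to 3, a difference in means of 4.67 peaks. Every senescent library was above every control library. In equal lists the numbers were 2, 2 and 2 against 2, 3 and 5, and the groups shared the value 2.

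A region of 1443 bp in an intron of Thra, chr11:98746754-98748196, was called in all 6 libraries. Its best peak lay 5685 bp downstream of the nearest start site and ranked 86, 143 and 63 in control and 60, 36 and 56 in senescent replicates 1 to 3. All 3 senescent ranks were better than the 3 control ranks, but as a percent of the list length they overlapped (3.08, 4.27 and 0.594% against 1.42, 0.367 and 1.11%). The region held 3 copies of CACGTG, one of them within 100 bp of the centre of the best peak. A second intronic region, chr11:98750334-98751113, was also called in all 6 libraries, at ranks of 1959, 376 and 904 in control and 2271.5, 1082.5 and 1641 in senescent replicates, and held 1 E-box. The windows of 200 bp around the best peak centres of both are shown because both lie in an intron of a receptor gene and were called in every library. They are given from the GRCm38 sequence on the + strand, with the E-box in capitals.
Thra intron, chr11:98747458-98747657: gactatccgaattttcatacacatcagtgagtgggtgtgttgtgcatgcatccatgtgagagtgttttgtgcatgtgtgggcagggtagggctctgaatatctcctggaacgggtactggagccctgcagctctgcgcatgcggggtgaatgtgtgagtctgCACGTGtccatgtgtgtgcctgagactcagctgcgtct
Thra intron, chr11:98750531-98750730: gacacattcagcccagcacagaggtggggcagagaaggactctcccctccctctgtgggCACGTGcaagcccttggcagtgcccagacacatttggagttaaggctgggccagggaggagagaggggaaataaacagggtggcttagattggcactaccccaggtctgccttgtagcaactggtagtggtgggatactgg

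Another 4 regions at Thra were called in 2 or 3 senescent and 0 control libraries. Their best peaks lay 856 bp upstream and 863, 6627 and 12979 bp downstream of the nearest start site, and the first and the last held an E-box within 100 bp of the peak centre. Their mean ranks, from 2493 to 6192.5, were far behind that of the first intronic region (74.0).

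Thrb, which encodes thyroid hormone receptor beta, had 2, 1 and 3 peaks in control and 1, 4 and 2 peaks in senescent replicates 1 to 3, and the groups overlapped. Its region called in all 6 libraries, chr14:18062046-18062767, was intergenic and lay 80770 bp downstream of the nearest Thrb start site, beyond the end of the gene. The next protein-coding start site was that of Nr1d2, 176828 bp away. The best peak ranked 1158.5, 2833.5 and 433.5 in control and 563.5, 569.5 and 784 in senescent replicates. It is shown as the most distant of the regions of this kind with an E-box, in capitals on the + strand.
Thrb, chr14:18062199-18062398: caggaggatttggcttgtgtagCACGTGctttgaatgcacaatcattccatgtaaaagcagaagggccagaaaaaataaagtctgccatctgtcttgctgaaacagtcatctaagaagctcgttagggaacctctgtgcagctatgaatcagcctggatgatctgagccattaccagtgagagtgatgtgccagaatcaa

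The peroxisome proliferator-activated receptors sense fatty acids and their derivatives. Ppara had 2, 3 and 15 peaks in control and 1, 8 and 2 peaks in senescent replicates 1 to 3. The groups overlapped, and the lead of the control mean rested on control replicate 3: the difference was -3.00 peaks with it and 1.17 peaks without it. In equal lists the numbers were 2, 2 and 4 in control and 1, 1 and 1 in senescent libraries, which no longer overlapped.

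The 14 merged regions nearest to Ppara were the most of any receptor. All lay 26061 to 72715 bp upstream of its start sites, and none lay in its promoter. The region called in all 6 libraries, chr15:85677298-85678678, lay 57484 bp upstream, in an intron of the non-coding gene Lncppara. Its best peak ranked 208, 288 and 141.5 in control and 235, 138 and 139 in senescent replicates, the second best of the receptors after Thra. Nearest-gene assignment gave it to Ppara, and the next protein-coding start site, that of Wnt7b, was 95607 bp away. The window is shown because its E-box lay 10.5 bp from the centre of the best peak, the closest among these regions.
Ppara upstream, chr15:85677980-85678179: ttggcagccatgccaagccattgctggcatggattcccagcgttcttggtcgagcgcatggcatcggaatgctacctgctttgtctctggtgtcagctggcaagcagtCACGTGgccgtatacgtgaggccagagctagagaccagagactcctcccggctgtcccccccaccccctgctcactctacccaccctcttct

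Pparg, which encodes the regulator of fat cell formation, had 1, 1 and 2 peaks in control replicates 1 to 3 and 0 in each senescent library. It was 1 of 2 receptors called in at least 2 control and 0 senescent libraries, beside 1.64% of all genes. The second was Nr2c2, which encodes an orphan receptor also known as TR4, with 1, 0 and 1 peaks against 0 in each senescent library, 248 bp from a start site. In equal lists Pparg had 1, 1 and 0 peaks and Nr2c2 had 1, 0 and 0. Only Pparg met the rule there, beside 2.07% of all genes. With peaks above the median score neither did, beside 1.07%.

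The Pparg region called in all 3 control libraries, chr6:115317021-115317244, was intergenic, 43859 bp upstream of the nearest start site, at ranks of 1443.5, 609 and 8732.5. It is shown as the best-ranked of the 3 control-only receptor regions. None of the motifs searched was found in the 200 bp window, so it has no capitals, while one near-canonical E-box, AACGTG, lay in the region 107.5 bp from the peak centre.
Pparg upstream, chr6:115316992-115317191: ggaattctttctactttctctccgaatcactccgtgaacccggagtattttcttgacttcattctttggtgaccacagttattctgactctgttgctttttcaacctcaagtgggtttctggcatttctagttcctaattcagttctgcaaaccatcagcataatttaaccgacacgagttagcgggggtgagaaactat

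Ppard, the most widely expressed of the 3 receptors of this type, had 2 peaks in senescent replicate 2 and 0 in the other 5 libraries.

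**Figure D3:**
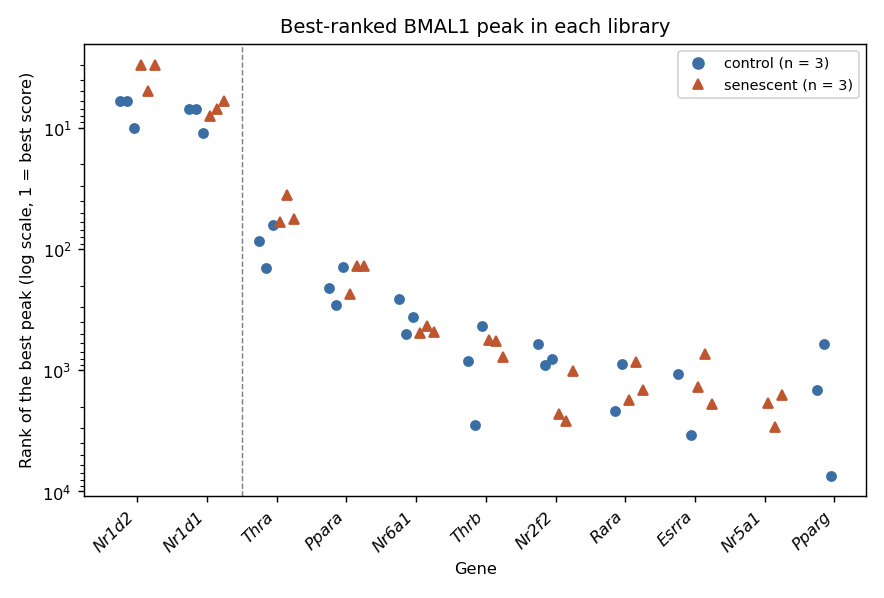
Rank of the best peak of each gene in each library (vertical axis, log scale, rank 1 at the top), for the clock genes Nr1d2 and Nr1d1 left of the dashed line and 9 of the 41 receptors right of it, control as blue circles and senescent as orange triangles (n = 3 each, no symbol where no peak was called). Nr1d2 and Nr1d1 lay at ranks 3 to 11 and Thra at 36 to 143.

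The retinoic acid receptors pair with the retinoid X receptors to bind DNA. Rara had 0, 1 and 1 peaks in control and 2, 4 and 2 peaks in senescent replicates 1 to 3, with no overlap. In equal lists it had 0, 1 and 1 against 1, 2 and 1, and the groups shared the value 1. Its promoter region, 101 bp upstream of a start site, was called in control replicates 2 and 3 and in all senescent replicates, and a region in its intron, 2533 bp downstream, with an E-box, was called in all 3 senescent libraries and in 0 control libraries. Rarg had 0, 0 and 1 peaks in control and 0, 3 and 1 peaks in senescent replicates 1 to 3. The groups overlapped, and of 4 Rarg regions only that 247 bp upstream of a start site was called in more than 1 library. Rarb had 1 peak, in control replicate 3. Rxra had 0, 0 and 1 peaks against 1, 1 and 0, each in a region of its own, and Rxrb and Rxrg had none.

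Nr2f2, which encodes COUP-TFII, a receptor of mesenchymal and vascular cells, had 1, 1 and 1 peaks in control and 3, 5 and 3 peaks in senescent replicates 1 to 3. The groups did not overlap. In equal lists they did, at 1, 1 and 1 against 2, 1 and 2. The single control peak lay in a region shared by all 6 libraries, chr7:70267052-70267482, which was 93260 bp downstream of the nearest Nr2f2 start site, in an intron of the lincRNA Gm29683. Its best peak ranked 603, 903.5 and 800 in control and 2310, 2629.5 and 1022.5 in senescent replicates. Here every control rank was better than every senescent rank, while the percent of the list length overlapped (7.55 to 27.0% in control and 20.2 to 54.7% in senescent libraries). The region held no E-box and 2 AP-1 motifs, and is shown as the best-ranked receptor region with an AP-1 motif near its centre, in capitals on the + strand.
Nr2f2 downstream, chr7:70267233-70267432: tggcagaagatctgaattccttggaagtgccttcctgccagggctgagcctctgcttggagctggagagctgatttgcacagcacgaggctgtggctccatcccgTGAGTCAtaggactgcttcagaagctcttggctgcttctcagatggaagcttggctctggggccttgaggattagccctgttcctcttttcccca

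Of the senescent peaks at Nr2f2, those at 14196 bp downstream of the start site were called in all 3 senescent libraries and those in a coding exon 607 bp downstream were called in 2. Both regions held an E-box within 100 bp of the peak centre and neither was called in a control library. The related gene Nr2f1 (COUP-TFI) had 1 peak, in senescent replicate 1, at a distance of 287694 bp.

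Nr6a1, which encodes an orphan receptor of germ cells and early embryos, was the only receptor with a promoter peak in all 6 libraries. This was 2.44% of the 41 receptors, near the 2.17% of all genes. Overall 11 of the 41 receptors (26.8%) had a promoter peak, within 1000 bp of a start site, in any library, beside 21.7% of all genes. Nr6a1 had 1, 1 and 4 peaks in control and 1, 3 and 3 in senescent replicates 1 to 3, and the groups overlapped. The promoter region, chr2:38926345-38927480, lay 384 bp upstream of a start site and ranked 257.5, 504.5 and 361 in control and 493, 435 and 480.5 in senescent replicates. No E-box lay within 100 bp of the best peak's centre. One lay 142.5 bp from it and is shown with 30 bp to each side, a stretch chosen after its position was seen.
Nr6a1 promoter region, chr2:38926711-38926776: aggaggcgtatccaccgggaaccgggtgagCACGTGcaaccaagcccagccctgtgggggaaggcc

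The NR4A receptors are early response genes that act without a known natural ligand. Nr4a1 had 0, 1 and 3 peaks in control and 2, 2 and 1 in senescent replicates 1 to 3, and its region 7863 bp upstream was called in 5 libraries, all but control replicate 1. Nr4a3 had 0, 1 and 0 against 2, 4 and 1 peaks, with the value 1 in both groups, in 4 regions from 125 to 1757 bp upstream of its start site. Nr4a2 had 0, 0 and 1 against 1, 1 and 1 peaks.

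The 3 senescent peaks of Nr4a2 fell in a single region, chr2:57102487-57102873, called in 0 control libraries. It was intergenic, 10392 bp downstream of the nearest start site, and ranked 2417, 1482 and 721.5 in the senescent replicates, the best mean rank of the 12 senescent-only receptor regions. It is shown for that reason and because it held an E-box and an AP-1 motif, the stretches in capitals, between positions 57102603 and 57102670.
Nr4a2 downstream, chr2:57102580-57102779: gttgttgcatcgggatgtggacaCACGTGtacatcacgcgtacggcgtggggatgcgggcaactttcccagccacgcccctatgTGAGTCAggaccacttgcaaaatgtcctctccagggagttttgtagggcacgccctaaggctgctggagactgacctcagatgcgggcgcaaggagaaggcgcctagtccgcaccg

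Nr5a1, which encodes SF-1, the regulator of steroid hormone synthesis in adrenal gland and gonads, had 1 peak in each senescent library and 0 in each control library. It was the only receptor called in at least 2 senescent and 0 control libraries, beside 3.42% of all genes. The 3 peaks formed 1 intergenic region, chr2:38689827-38690142, 22221 bp downstream of the nearest start site, with 2 AP-1 motifs and no E-box, at ranks of 1845.5, 2960.5 and 1606. In equal lists it was called in 2 senescent libraries and kept to the rule. Without control replicate 3, the longest list, 4 receptors met the rule (Nr4a2, Nr5a1, Rarg and Rxra), while the share of all genes that did so was 7.85%. Nr5a2 had 1 peak in control replicate 3 and 1 in senescent replicate 2, in separate regions. The paper names Nr5a2 among the genes with increased BMAL1 binding in senescence. It compared reads, a measure that numbers of peaks do not give.

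Esrra, which encodes an orphan receptor of mitochondrial energy metabolism, had 1, 0 and 1 peaks in control and 1, 1 and 2 in senescent replicates 1 to 3. The 5 libraries with a peak shared a promoter region 389 bp upstream of a start site, at ranks of 1067.5 and 3406.5 in control replicates 1 and 3 and 1362, 729 and 1904 in senescent replicates. The estrogen receptor genes Esr1 and Esr2, the bile acid receptor gene Nr1h4 and the xenobiotic receptor gene Nr1i2 had 1 peak each, in control replicate 3, and the mineralocorticoid receptor gene Nr3c2 had 1 in senescent replicate 2. In all, 8 receptors were called in 1 library only, and 7 of these calls came from the 2 longest lists.

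The 17 receptors with 0 peaks were the liver X receptor genes Nr1h2 and Nr1h3, the vitamin D receptor gene Vdr, the progesterone receptor gene Pgr, Rxrb, Rxrg, Esrrb, Esrrg, Hnf4a, Hnf4g, Nr0b1, Nr0b2, Nr1i3, Nr2c1, Nr2e1, Nr2e3 and Nr2f6. No peak was called at these genes, and since depth is unknown no limit on binding can be given.

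**Figure D4:**
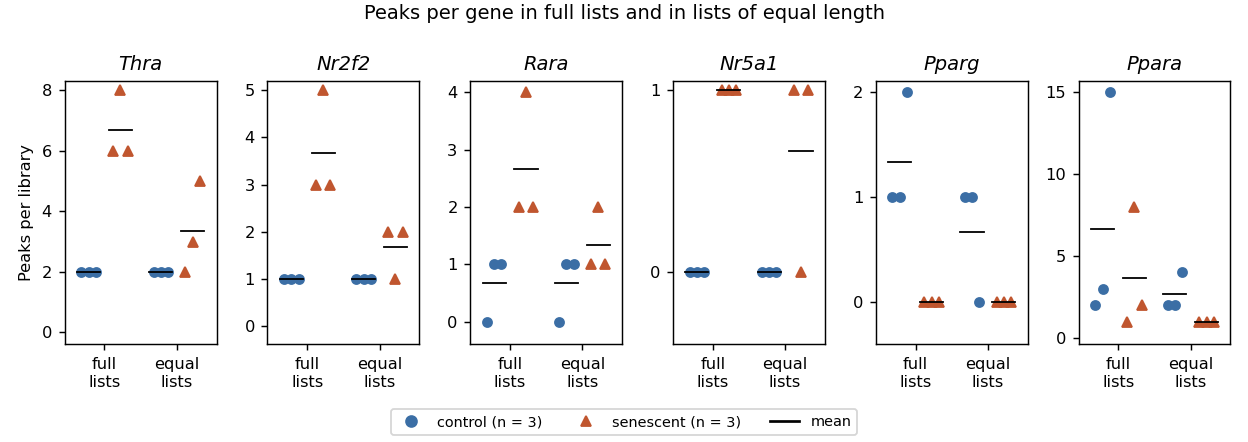
Peaks per library at 6 receptor genes in the full lists and in equal lists of 2794 peaks, control as blue circles and senescent as orange triangles (n = 3 each), with the mean as a line. At Thra, Nr2f2, Rara, Nr5a1 and Pparg the groups did not overlap in full lists and did in equal lists, and at Ppara the reverse held.

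The receptor peaks merged into 71 of the 16818 regions of the series. Of these, 6 (8.45%) were called in all 6 libraries, beside 6.58% of all regions. A further 12 (16.9%) were called in at least 2 senescent and 0 control libraries, beside 9.44%, and 3 (4.23%) in at least 2 control and 0 senescent libraries, beside 5.86%. The remaining 50 were called in 1 library (38) or in another combination (12). Thra held 4 of the 12 senescent-only regions, and Nr2f2 and Nr4a3 held 2 each. In equal lists 3 senescent-only regions were found among 30 receptor regions, beside 12.5% of all regions. Without senescent replicate 2 there were 6 among 58, beside 5.34%, and without control replicate 3 there were 13 among 55, beside 21.4%. Without both of these libraries there were 6 among 35, beside 15.6%, so that the receptors came near the share of all regions once control replicate 3 was left out.

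**Figure D5:**
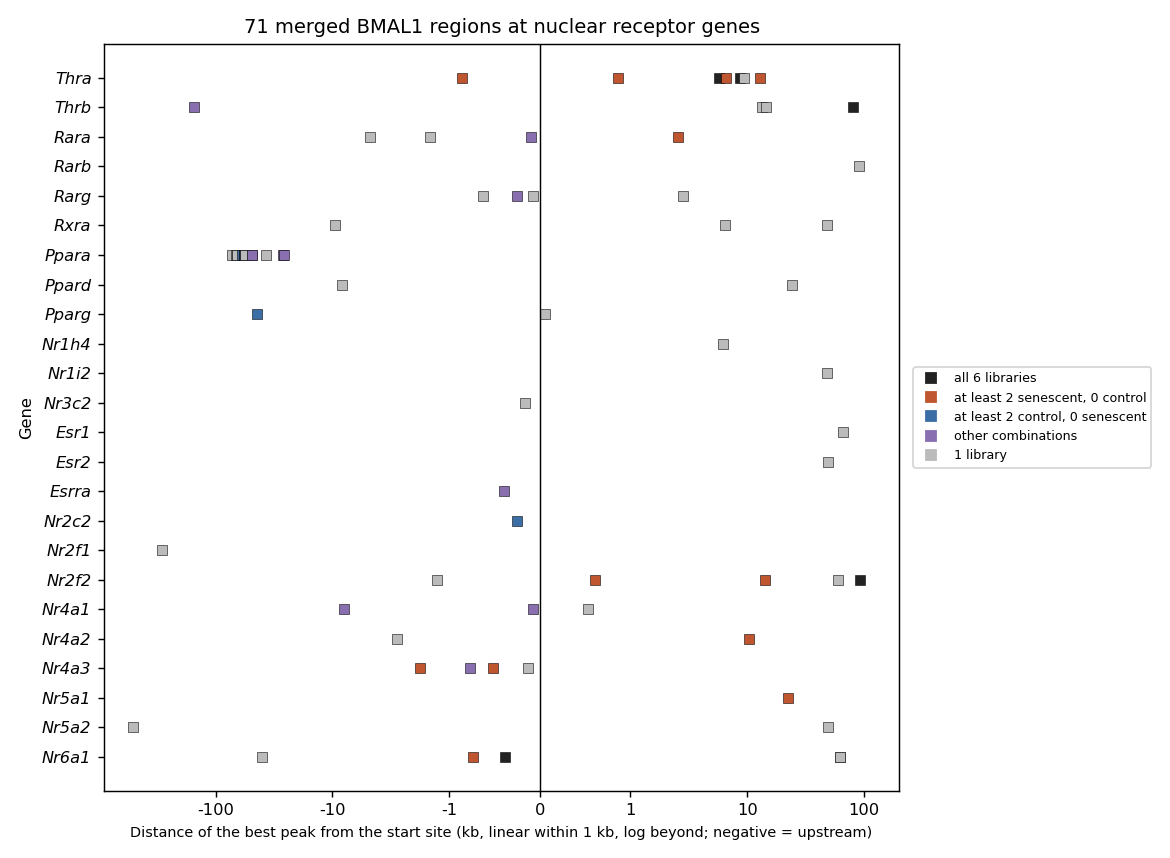
Distance of the best peak of each of the 71 merged regions from the nearest start site of its receptor gene (horizontal axis in kb, linear within 1 kb and log beyond, upstream to the left), 1 row per gene, coloured by the libraries in which the region was called. The regions of Ppara all lay upstream, from 26.1 to 72.7 kb, and the region of Nr6a1 called in all 6 libraries was the only one of that kind within 1 kb of a start site.

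Of the 71 receptor regions, 18 (25.4%) lay in promoters, against 33.9% of all regions, and 19 (26.8%) lay more than 50 kb from the start site, against 21.7%. These shares were not tested, since the receptors were chosen with earlier results known. Per library, promoters took 23.8% ± 4.25 of receptor peaks in control cells and 33.9% ± 4.57 in senescent cells (SD, n = 3 each), which is 10.1 percentage points more, beside 32.1% ± 0.703 and 41.7% ± 2.83 over all peaks. The highest control value, 27.3%, was below the lowest senescent value, 30.6%. Within 50 kb of the start site the difference was -0.26 percentage points, so no rise was seen without the more distant peaks. The same difference over all peaks within 50 kb was not computed.

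An E-box lay within 100 bp of the best peak centre in 14 receptor regions (19.7%, against 17.0% of all regions). The E-box stood in 4 of the 6 regions called in all libraries, in 6 of the 12 senescent-only regions and in 0 of the 3 control-only regions. Over all regions of these kinds the shares were 45.1, 38.4 and 8.62%. Anywhere in the region, an E-box was found in 18 receptor regions (25.4%, against 19.9%) and an AP-1 motif in 6 (8.45%, against 18.5%). The 200 bp window could reach beyond a region, so these counts can differ in either direction. Within 100 bp of the best peak centre, the near-canonical E-box AACGTG lay in 7 (9.86%, against 6.12%), and an AP-1 motif in 7 (9.86%, against 16.6%). The half-site AGGTCA lay in 9 regions (12.7%, against 11.1%), the longer form AAAGGTCA in 0 (against 0.963%), and the RUNX motif, TGTGGTTA or TGTGGTTT, in 1 (1.41%, against 4.54%). Neither an E-box nor an AP-1 motif was found in 51 of the 71 (71.8%, against 68.6%). All motifs were searched on both strands as exact letters.

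Peaks with an E-box made up 30.1% ± 10.4 of receptor peaks in control cells and 38.8% ± 12.5 in senescent cells (SD, n = 3 each), with overlapping ranges, beside 22.8% ± 8.67 and 32.2% ± 8.43 over all peaks. The difference ran from 4.12 points without senescent replicate 1 through 4.30 without control replicate 3 and 14.4 without control replicate 2 to 15.8 without senescent replicate 2, and was 3.56 points in equal lists. With an E-box anywhere in the peak the difference was 6.15 percentage points. With peaks above the median score the difference turned from 8.65 to -7.71 percentage points. Those with an AP-1 motif made up 7.40% ± 2.31 and 13.9% ± 4.98, beside 12.9% ± 0.216 and 16.7% ± 0.369 over all peaks. The values were 9.09, 8.33 and 4.76% in control and 17.4, 8.16 and 16% in senescent replicates 1 to 3, which overlapped. They rested on 1 to 4 peaks in each library. The AP-1 difference was 6.46 percentage points, and 7.25 points with the motif anywhere in the peak.

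Promoter sequences from RefSeq (GRCm38, 250 bp before to 50 bp after each start) were matched for 38 of the 41 receptors. An E-box was found at 5 of them (13.2%, against 8.09% of all genes): Nr0b2, Nr1i3, Rara, Thrb and Esr2. Of these, only Rara had a promoter peak, and Nr0b2 and Nr1i3 had no peak in any library. The half-site stood in 10 promoters (26.3%, against 18.1%) and AP-1 motifs in 2 (5.26%, against 5.95%).

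The receptor genes are widely spaced, which bears on a count by nearest gene. The stretch of chromosome nearest to a start site had a median of 114.6 kb at the receptors and 47.4 kb over all genes, and was above the median of all genes at 31 of the 41. Per megabase of this stretch, the receptors held 4.55 merged regions against 6.22 over all genes, a ratio of 0.732. The share of receptors with a peak was thus above that of all genes. The number of regions per length, summed over all 41 receptors, was below that of all genes. The number per length leaned on 1 gene: Hnf4g, with 0 peaks, alone held 4426 kb of the 15.6 Mb summed over the receptors. The ratio of 0.732 thus holds only with Hnf4g included. It was not computed without Hnf4g, so a lower number of regions per length cannot be stated for the receptors in general.

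For comparison, the clock genes Nr1d1 and Nr1d2 were called in all 6 libraries. Nr1d2 ranked 6, 6 and 10 in control and 3, 5 and 3 in senescent replicates 1 to 3, and Nr1d1 ranked 7, 7 and 11 and 8, 7 and 6, ahead of the 41 receptors in each library. Thra and Nr1d1 are neighbours on opposite strands. After Thra, the protein-coding start site nearest to the first intronic Thra region was that of Med24, 18123 bp away.

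Among 20 coregulator genes, whose products join receptors to chromatin enzymes, 2 were called in all 6 libraries (Ppargc1a and Tbl1xr1). Only Nrip1, a corepressor of hormone-bound receptors, was senescent-only, with 1 peak in each senescent library. Among 26 genes of ligand supply and breakdown, Aldh1a1, which makes retinoic acid, and Cyp26b1, which degrades it, were called in all 6 libraries, and Dio2, which activates thyroid hormone, in 2 senescent and 0 control libraries. Dhrs3, which limits retinoic acid formation, had 2, 4 and 17 peaks in control and 2, 0 and 1 in senescent replicates 1 to 3, and the groups overlapped at 2. Among 19 target genes of the receptors, Klf9, a target of thyroid hormone and glucocorticoids, and Mylip, a target of liver X receptors, were called in all 6 libraries, and Abcb11 and Cd36 were senescent-only. Genes called in all 6 libraries were 10.0% of the coregulators, 7.69% of the ligand genes and 10.5% of the targets, beside 5.14% of all genes. Senescent-only genes were 5.0, 3.85 and 10.5%, beside 3.42%. Control-only genes numbered 0 in these 3 lists, beside 1.64% of all genes. Among genes with a peak, groups that did not overlap were found at 1 of 13 coregulators (Nrip1), 0 of 11 ligand genes and 1 of 9 targets (Abcb11). Both genes were higher in senescent libraries. Of all genes with a peak, 5.12% were higher in this way. Nrip1 and Abcb11 each had an exact permutation p of 0.1 and an adjusted p of 1.0.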

How the data were processed

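BMAL1-ChIP-seq was analysed in 3 control and 3 senescent MAF libraries. Tagmented libraries were sequenced and, per the study's methods, paired reads were aligned to mm10 with BWA, duplicates were removed with Picard and each library's peaks were called with MACS (HiChIP pipeline, FDR up to 1%). The MACS2 version and the use of the input are not given in the sources used here, and labels and methods name different BMAL1 antibodies. The authors deposited a score per peak, read here as the −log10 of its q-value, which was inferred from the values and used only to rank peaks within a list. Peak midpoints were assigned to the nearest start site of protein-coding transcripts (GENCODE basic M21) with Python 3.11.15, pandas 2.3.3 and SciPy 1.17.1. Peaks overlapping by at least 1 bp were merged, and motifs were searched within 100 bp of the midpoint. The number of peaks per library was compared per gene with the exact two-sided permutation test (20 arrangements) and Benjamini-Hochberg adjustment over genes with a peak. Simulated lists served to check the calls of groups that did not overlap, not the p-values or their adjustment. The study compared reads with DiffBind, which peak lists do not allow. Assigning a distal peak to the nearest gene does not show which gene it acts on. The receptors and gene lists were chosen with earlier results of these data known, so no p was given for values summed over them. Named receptors were those with a peak in all 6 libraries, in one group only, with groups that did not overlap, with a promoter peak in at least 3 libraries, or among the 5 with the most regions. The other receptors were given by count and name, and 1 gene outside the 41 is not reported here. Alternatives were peaks above the median score, equal lists, gene 5′ ends only, peaks within 50 kb, a 50% overlap and a promoter distance of 3000 bp. Further alternatives were a motif anywhere in the peak, leaving out each library and the replicate block. Leaving out the longest list of each group was added after the data were seen.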

Additional observations from a re-analysis of the deposited data

How the results depend on the processing

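The depth of the libraries is unknown and list length differed within both groups, so calls in 1 group only and differences in peak numbers could not be separated from how much was called. With peaks above each list's median score, senescent-only receptors numbered 2 (Nr4a3 and Nr5a1), beside 2.39% of all genes, and control-only receptors 0, beside 1.07%. Receptors called in all 6 libraries numbered 3, beside 2.75% of all genes. Those higher in senescent libraries numbered 1, beside 4.96% of the genes with a peak, and those higher in control libraries 0, beside 1.07%. The E-box difference was then -7.71 percentage points, and that of Rarg -0.33 peaks. In equal lists, 1 receptor was control-only, beside 2.07% of all genes. There, 0 receptors were higher in senescent libraries, beside 6.53% of the genes with a peak. Of 30 receptor regions, 3 were senescent-only, beside 12.5% of all regions. The AP-1 difference in equal lists was 13.3 percentage points, while Nr4a1 and Thrb turned to -0.33 peaks each. With peaks within 50 kb, 2 receptors were senescent-only (Nr2f2 and Nr5a1) and 2 were called in all 6 libraries, and the promoter and AP-1 differences were -0.26 and 10.9 percentage points. The promoter difference was 5.37 points with gene 5′ ends only, where Nr6a1 stood at -0.33 peaks, and 17.4 points with a promoter distance of 3000 bp. Without the longest list of each group, chosen after seeing the data, 2 receptors were senescent-only (Nr4a2 and Nr5a1), beside 3.95% of all genes, and 1 was control-only (Pparg), beside 0.924%. Of 35 receptor regions, 6 were then senescent-only, beside 15.6% of all regions, and 1 was control-only, beside 4.68%. The cause of each change was not tested.

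Leaving out each library in turn gave 1 to 4 senescent-only receptors, beside 1.63 to 7.85% of all genes, both highest without control replicate 3. Control-only receptors numbered 1 to 2, beside 0.521 to 2.99% of all genes. Receptors higher in senescent libraries numbered 4 to 5, beside 5.44 to 14.5% of the genes with a peak, a share that was highest without control replicate 3. Receptors higher in control libraries numbered 1 to 2, beside 1.95 to 4.65% of the genes with a peak. Senescent-only regions numbered 6 to 14. They numbered 6 without senescent replicate 2, beside 5.34% of all regions, and 13 of 55 without control replicate 3, beside 21.4%. Control-only regions numbered 1 to 4, with 1 without control replicate 3, beside 2.365% of all regions. The difference in the share of receptors with a peak ran from -0.813 to 12.6 percentage points and that in the E-box share from 4.12 to 15.8. Mean differences changed sign at 4 receptors, ranging from -0.33 to 1.17 peaks at Nr4a1, -0.17 to 1.33 at Nr6a1, -0.50 to 1.00 at Thrb and -5.33 to 1.17 at Ppara, where control replicate 3 decided it. With the replicate number as a block, 5 receptors were higher in senescent libraries, Nr4a3 being added, beside 6.27% of the genes with a peak, and 1 in control libraries, beside 2.38%, and the smallest possible p was 0.25. Deviations of same-numbered libraries correlated at 0.0177, 0.0067 and 0.0056 over genes, and those of differently numbered libraries at -0.0145 to 0.006. Such correlations of peak numbers cannot show whether same-numbered libraries shared animals or cultures. Pairing is therefore unknown, and the numbers were not taken as pairs.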
